A study of Zea mays with 112 samples.

Results

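BHLH156, AY110782 and BZR1 are 3 maize transcription factors (TFs) from different protein families, and their binding sites were compared here from 3 of the deposited ampDAP-seq peak lists, beside which the series holds 109 others. The lists were taken by their titles, and the group had been chosen by the measured sharing of sites between lists in these same data, so the pairwise sharing that follows is a description and was not tested. They hold 312820 of the 9750022 peaks of the series, namely 101281 for BHLH156 (Zm00001d017908), 119993 for AY110782 (Zm00001d047209) and 91546 for BZR1 (Zm00001d046305). The deposited table of the sample titled BHLH156 is itself named bHLH15. The sample's title and gene ID were followed, and BHLH156 values hold as far as that label does. In ampDAP-seq, a TF made in wheat germ extract with a HaloTag is held on beads and offered PCR-amplified genomic DNA, and the fragments it keeps are sequenced. For all lists the DNA came from leaves of the inbred line B73 labelled 14 DAG and carried neither chromatin nor methylation, and every TF was set by the authors against an empty HaloTag vector. Each TF had 1 list and no replicate, and read depth is unknown, so every interval below covers counting error only and says nothing about repeat experiments.

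BHLH156 belongs to the basic helix-loop-helix family, whose members bind E-box elements, among them the G-box CACGTG. That same G-box is the classical element of the bZIP factors called G-box binding factors, such as GBF1, and of many other bZIP proteins. The study places AY110782 in the CAMTA family, calmodulin-binding transcription activators known in Arabidopsis for binding CGCG-type elements in calcium and stress responses. BZR1 is named after the Arabidopsis factor that acts at the end of brassinosteroid signalling, and the study places it in the BES1 family. Dof factors, such as the prolamin-box binding factor PBF1 of the endosperm and DOF36, bind AAAG cores, and WRKY factors bind W-boxes. No genome or annotation of the build of the files (B73 v4) was used here, so sites are given by position and by the other lists found there, and no sequence or gene is named at a site.

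The signal of the authors' peak caller had a median of 40 in BHLH156, 52 in AY110782 and 31.7 in BZR1, and the strongest peak stood at 1511, 3651 and 964.0. A −log10 q of 10 or more was reached by 34.5% of BHLH156 peaks, 60.4% of AY110782 peaks and 11.8% of BZR1 peaks. Signal was compared only between peaks of the same list, since its scale may differ from one library to another.

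The first comparison asked how far the 3 TFs bound common sites. Sharing is defined as the percentage of the 5000 strongest peaks of each list with a summit among the 5000 strongest of the other within 100 bp, averaged over both directions. BHLH156 and AY110782 shared 18.5%, with 919 BHLH156 peaks near an AY110782 peak (18.4%, Wilson 95% interval 17.3 to 19.5) and 934 AY110782 peaks near a BHLH156 peak (18.7%, 17.6 to 19.8). By this measure each was the closest of 111 other lists to the other, although they are assigned to different families. BZR1 stood apart from both. It shared 0.45% with BHLH156, where 24 BHLH156 and 21 BZR1 peaks were involved, and 0.15% with AY110782, where 8 AY110782 and 7 BZR1 peaks were involved.

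Over all peaks the 3 pairs kept this order, but other lists came closer to BHLH156 and AY110782. Sharing over all peaks was 6.88% for BHLH156 with BZIP75, against 6.15% with AY110782. BZIP75 was not the closest list by this measure. EREB2 and MADS53, picked after their values were seen, stood well above it in both directions. EREB2 summits lay at 17.2% of BHLH156 peaks, and BHLH156 summits at 19.5% of EREB2 peaks. For MADS53 these shares were 13.7% and 32.3%, against 6.25% and 6.04% for AY110782. Summits of EREB209 and EREB97, picked after their values were seen, lay at 9.70% and 7.80% of AY110782 peaks. These lists are longer than that of BHLH156, with 225407 and 168321 peaks. In the other direction AY110782 summits lay at 5.08% and 5.34% of their peaks, below the share of BHLH156 peaks. An AY110782 summit lay within 100 bp of 6335 BHLH156 peaks (6.25%, Wilson 95% interval 6.11 to 6.41), against 1.53% of the peaks of the other 109 lists. A BHLH156 summit lay near 7249 AY110782 peaks (6.04%, 5.91 to 6.18), against 4.03% in those other lists. For BZR1 the shares were below those of the other lists. A BHLH156 summit was found at 1691 BZR1 peaks (1.85%) and an AY110782 summit at 402 (0.439%). In the reverse direction a BZR1 summit lay at 1.76% of BHLH156 peaks and 0.392% of AY110782 peaks, against 3.31% in the other lists.

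The wider company of the lists separated them in the same way. After AY110782, the closest lists to BHLH156 were the NAC factors NACTF65 (6.82%), NRP1 (3.83%), NACTF29 (3.41%) and NACTF11 (2.38%). The closest to AY110782 after BHLH156 were NACTF65 (7.76%), NACTF29 (4.38%), NRP1 (4.23%) and NACTF11 (2.95%), so both shared the same 4 next neighbours. The closest lists to BZR1 were PBF1 (32.9%), DOF36 (30.9%), WRKY2 (14.9%), WRKY79 (14.0%) and WRKY14 (13.9%). Of the 111 other lists, sharing reached 1% with 26 for BHLH156, 8 for AY110782 and 35 for BZR1.

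Family assignment did not go with sharing for AY110782. ZmOrphan110 is the only other list that the study places in the CAMTA family, and it had no peak in common with AY110782 among the 5000 strongest of each (0.00%). Over all peaks, 96 of 119993 AY110782 peaks had a ZmOrphan110 summit (0.0800%). ZmOrphan110 instead shared 11.8% with BZR1 and 0.12% with BHLH156. The run identifiers of ZmOrphan110 and BZR1 began with the same 5 digits, as did those of 28 lists in all. That of AY110782 began with other digits, and BHLH156 had none. Run and TF cannot be told apart in this contrast. For BZR1, which is the single list of its assigned family, the label could not be checked against a relative, and its leading neighbours were Dof and WRKY lists.

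**Figure D1:**
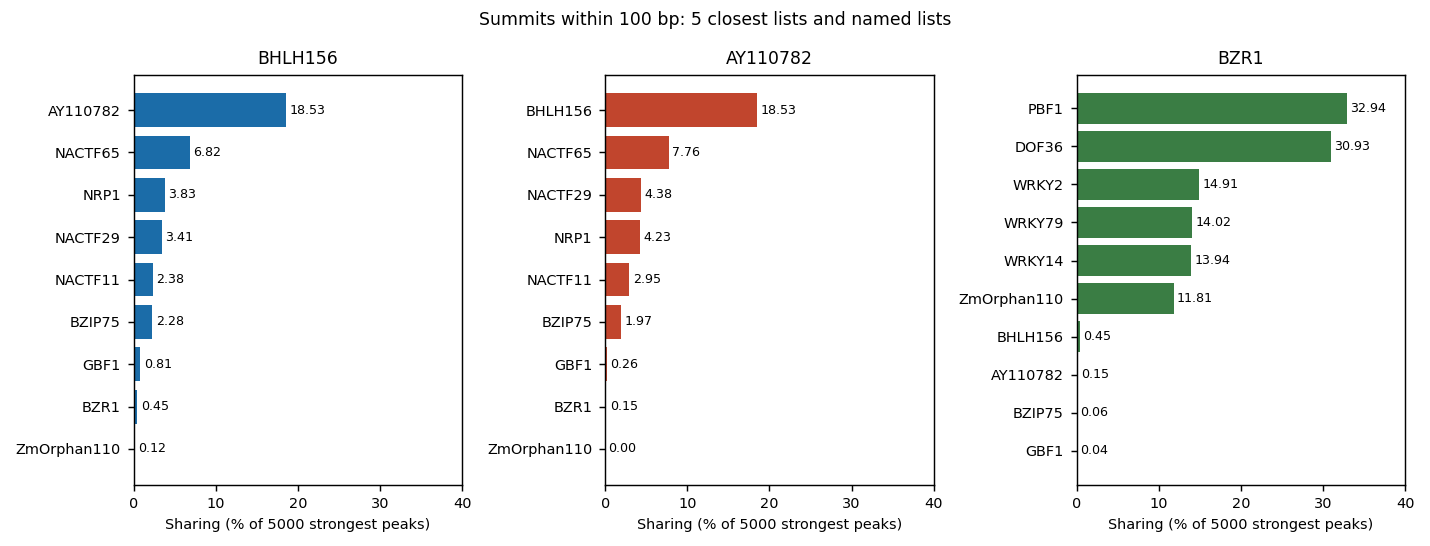
Sharing of BHLH156, AY110782 and BZR1 with other lists, as the percentage of the 5000 strongest peaks with a summit of the other list within 100 bp, averaged over both directions. Bars give the 5 closest lists of each TF, the other members, GBF1, BZIP75 and ZmOrphan110. BHLH156 and AY110782 lead each other's panel at 18.5%, while BZR1 is led by PBF1 at 32.9% and DOF36 at 30.9%.

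Sharing was concentrated in the strongest sites. Of the 1000 strongest BHLH156 peaks, 63.2% (Wilson 95% interval 60.2 to 66.1) had an AY110782 summit within 100 bp, and 47.6% an NRP1, 45.0% a NACTF65, 40.5% a BZIP75, 29.4% a GBF1 and 14.4% a BZR1 summit. Among BHLH156 peaks ranked beyond 50000 these shares were 2.86%, 4.92%, 2.99%, 4.78%, 6.29% and 1.26%. AY110782 showed the same course, with BHLH156 summits at 44.4% (41.3 to 47.5), NACTF65 at 39.5% and NRP1 at 38.5% of its 1000 strongest peaks, and at 2.71%, 2.32% and 3.47% of those beyond rank 50000. BZR1 showed it with several lists, among them DOF36 summits at 79.7% and PBF1 summits at 79% of the 1000 strongest peaks and at 22.8% and 8.28% of those beyond rank 50000. ZmOrphan110 stood at 32.6% and any WRKY list at 50.4% of the 1000 strongest BZR1 peaks, and at 3.14% and 14.7% beyond rank 50000, and BHLH156 at 5.5% and 1.59%. The AY110782 share of BZR1 peaks stayed between 0.368% and 0.70% over the rank classes.

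EREB2, an AP2/ERF-type list picked after its values were seen, ran the other way along BHLH156. Its summits lay at 1.8% of the 1000 strongest BHLH156 peaks and at 17.4% of those beyond rank 50000. WRKY summits did the same, with 6.1% of the 1000 strongest BHLH156 peaks and 23.7% of the weakest class. Both courses ran against that of AY110782.

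**Figure D2:**
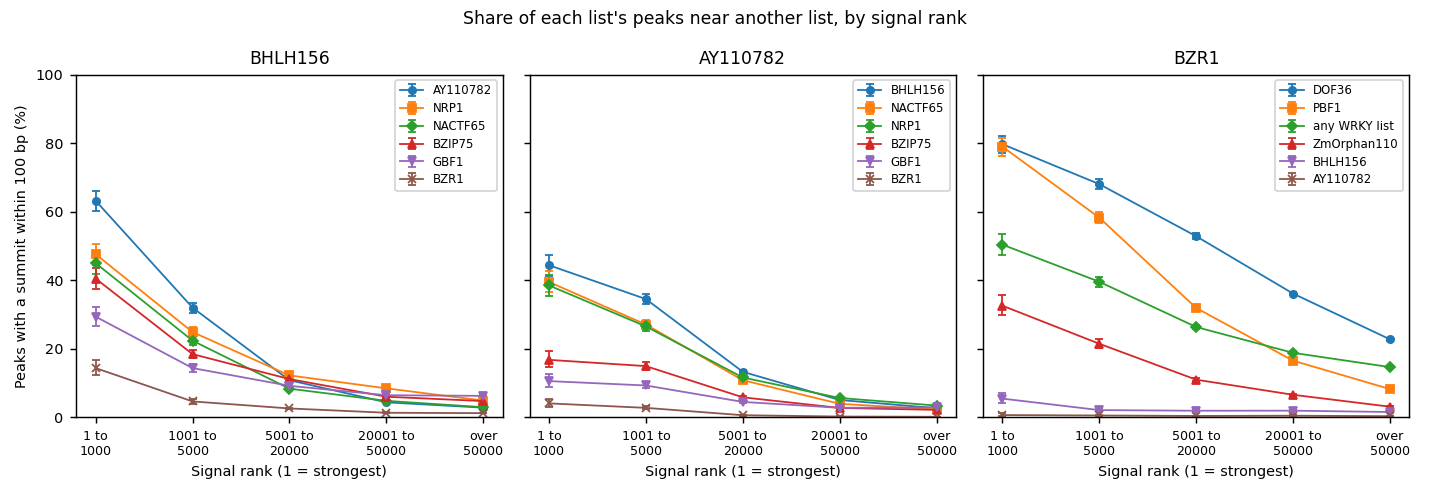
Percentage of peaks with a summit of the named list within 100 bp (y axis), by signal rank of the peak within its own list (x axis, rank 1 the strongest), for BHLH156, AY110782 and BZR1. Error bars are Wilson 95% intervals, which cover counting error only. AY110782 summits fall to 2.86% of the weakest BHLH156 peaks, against 63.2% of the 1000 strongest, while DOF36 leads at all ranks of BZR1.

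The strong shared sites gathered several lists at the same place. Among the 632 of the 1000 strongest BHLH156 peaks that had an AY110782 summit, NRP1 was present at 59.8%, NACTF65 at 57% and BZIP75 at 49.8%. Among the 368 without one, these lists were present at 26.6%, 24.5% and 24.5%. AY110782, NACTF65, NRP1 and BZIP75 all had a summit at 151 of the 1000. From the side of AY110782, NACTF65 stood at 67.3% and NRP1 at 66.0% of the 444 strongest peaks with BHLH156, against 17.3% and 16.5% of the 556 without it. BZIP75 stood at 24.8% with BHLH156 and at 10.4% without it.

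In BHLH156 and AY110782 median signal was higher at sites shared with several lists. BHLH156 peaks with an AY110782 summit had a median signal of 91.0, against 39.0 without one. AY110782 peaks with a BHLH156 summit had a median signal of 207.0, against 49.3 without one. It was 231.65 in AY110782 and 57 in BHLH156 at sites of BZR1, against 52 and 40 elsewhere, and 118.6 in AY110782 at sites of BZIP75, against 51 elsewhere. BZR1 peaks had a median of 33 at sites of BHLH156 against 31.6 elsewhere, and 34 at sites of AY110782 against 31.7 elsewhere.

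Chaining the summits of the 3 lists wherever neighbours lay within 100 bp gave 294363 loci. BHLH156 and AY110782 alone met at 5605 loci, BHLH156 and BZR1 at 1399, AY110782 and BZR1 at 153, and all 3 at 269 (0.0914% of loci). The remaining loci held 1 list, namely 92709 for BHLH156, 104880 for AY110782 and 89348 for BZR1. The loci of all 3 were spread over the 10 chromosomes, with 18 to 44 each, and 4 lay off the chromosomes. Their first and last summits were a median of 106 bp apart. By the strongest summit of each list in a locus, they were strong sites for BHLH156 (median rank 1375) and AY110782 (median rank 4407). For BZR1 they were ordinary ones (median rank 38439). Taking the strongest summit favours lists with several summits in a locus.

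At 6 of the 269 loci all 3 TFs bound with a peak among their 5000 strongest. The best by its weakest member was on chromosome 4 from 145848730 to 145848881 (B73 v4), with rank 80 and signal 768.3 in BHLH156, rank 283 and signal 1095 in AY110782, and rank 2053 and signal 94.0 in BZR1. A second-best locus, on chromosome 10 from 77862549 to 77862679, had ranks 13, 2975 and 3085 in the same order of lists. The third lay on chromosome 6 from 50809316 to 50809438, with ranks 5, 1164 and 4246. The BHLH156 summits of these loci had summits of 15, 6 and 10 other lists within 100 bp, so none was a meeting point of the 3 members alone.

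Private sites were the larger part of AY110782. No summit of any of the 111 other lists lay within 100 bp of 72341 AY110782 peaks (60.3%, Wilson 95% interval 60.01 to 60.56), 33085 BHLH156 peaks (32.7%, 32.4 to 33) and 25471 BZR1 peaks (27.8%, 27.5 to 28.1). The same held for 16.5% of the peaks of the other 109 lists, and the share in a list ran from 1.25% to 60.8% with a median of 9.93%. A private share also depends on how many related TFs were profiled. The series holds 20 WRKY and 13 BZIP lists but no second list of the family assigned to BZR1, and the effect of this was not tested. AY110782 was 111th and BHLH156 98th when all lists were ordered from the lowest private share. Among the 5000 strongest peaks, 36% of AY110782, 26.5% of BHLH156 and 6.22% of BZR1 were private.

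Sites with many lists showed the opposite ranking. Summits of 20 or more lists, the peak's own included, were found at 4136 BZR1 peaks (4.52%), 3514 BHLH156 peaks (3.47%) and 95 AY110782 peaks (0.0792%). In BZR1 these sites held a median of 19 WRKY lists and made up 18.7% of the 5000 strongest peaks. In BHLH156 they held a median of 4 WRKY, 3 EREB and 3 BZIP lists, and 2.06% of the 5000 strongest peaks were among them. A BZR1 summit lay at 290 of these 3514 BHLH156 peaks (8.25%), against 1.53% of the other BHLH156 peaks. An AY110782 summit lay at 46 of them (1.31%), against 6.43% of the others. BZR1 and AY110782 count among the lists that define these sites, so such shares are not independent of the definition. The share of such sites over the other lists was not computed.

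Some short lists lay to a large extent on BHLH156 sites. They were picked after their values were seen. BHLH156 summits were within 100 bp of 43.4% of the 7965 ZIM34 peaks, 40.4% of the 9694 ZAG2 peaks and 39.5% of the 16079 SFB1 peaks. The share over the peaks of the other 109 lists was 4.03%. These short lists were not particular to BHLH156 sites. A summit of any WRKY list lay at 67.1% of ZIM34, 67.5% of ZAG2 and 67.8% of SFB1 peaks. The BHLH156 peaks concerned were 3.46%, 3.89% and 6.35% of its list. No list had such a large part of its peaks on AY110782 sites, where BHLH156 itself was highest with 6.25% of its peaks. On BZR1 sites PBF1 (44.9% of its peaks) and DOF36 (38.5%) came first.

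**Figure D3:**
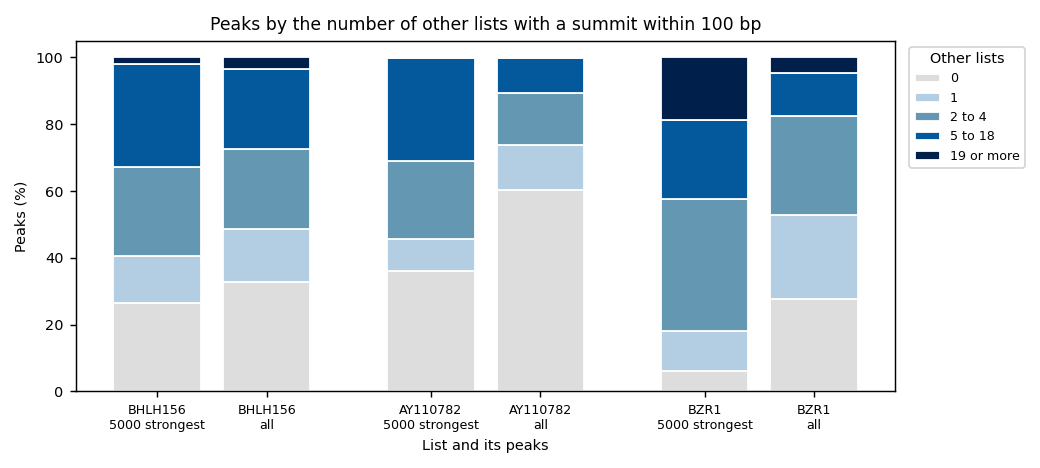
Peaks of BHLH156, AY110782 and BZR1 by the number of other lists with a summit within 100 bp (colour), as a percentage of the 5000 strongest and of all peaks (bars). The palest segment gives private peaks, which make up 60.3% of all AY110782 peaks and 6.22% of the 5000 strongest BZR1 peaks.

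The strongest private peak of AY110782 was the 4th of its list, on the unplaced contig ctg59 from 25423 to 25623, with a signal of 3267. That of BHLH156 was the 49th of its list, on chromosome 1 from 15786795 to 15786995, with a signal of 824.8. That of BZR1 ranked 207, on chromosome 8 from 69425289 to 69425489, with a signal of 177.0.

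Peaks of AY110782 also lay close to each other. Another AY110782 summit was within 100 bp of 16434 of its peaks (13.7%), against 2.09% for BHLH156 and 0.758% for BZR1, and the median list of the series had 4.28%. The most frequent gap between neighbouring AY110782 summits, noticed after the gaps were seen, was exactly 63 bp, with 1312 pairs. No other gap up to 600 bp exceeded 833 pairs. The 2624 peaks of the 63 bp pairs were strong, with a median signal of 197.8 against 52 for the list. They were also private, since 2550 of them (97.2%) had no summit of another list, and BHLH156 summits lay at 29 (1.11%). In BHLH156 the commonest gap was 162 bp with 133 pairs, and in BZR1 191 bp with 84 pairs.

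Distances between the summits of shared peaks were examined next. The median distance over shared peaks was 34 bp (order-statistic 95% interval 33 to 35, 6335 peaks) for BHLH156 to AY110782, 45 bp (42 to 47, 1781 peaks) for BHLH156 to BZR1 and 43 bp (40 to 48, 470 peaks) for AY110782 to BZR1. Summits coincided within 1 bp at 520 BHLH156 to AY110782 peaks (8.21%), 37 BHLH156 to BZR1 peaks (2.08%) and 7 AY110782 to BZR1 peaks (1.49%). Within 10 bp these shares were 17.6%, 12.2% and 14.0%. Most summits at shared sites were therefore more than 10 bp apart. Summits spread evenly over the 100 bp window would also lie mostly beyond 10 bp, with a median near its middle. The medians thus depend on the window, and with a 50 bp window they were 21, 25 and 23 bp.

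The BHLH156 to AY110782 distances were not spread evenly. They came in steps of about 11 bp, a pattern noticed after the distances were seen. There were 732 peaks at 9 to 13 bp, 386 at 14 to 19 bp, 594 at 20 to 24 bp, 337 at 25 to 30 bp and 451 at 31 to 35 bp. Within 2 bp of the first 5 multiples of 11 bp there were 98.5 peaks per bp of distance, and 56.0 per bp in the stretches between them. Among the 1000 strongest BHLH156 peaks the ratio was 2.65 (298 peaks against 108), and over all peaks it was 1.76.

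The same steps appeared from BHLH156 to its other neighbours at strong sites, and less evenly from AY110782. For the 1000 strongest BHLH156 peaks the ratio was 3.03 to NACTF65, 2.60 to NRP1, 2.47 to BZIP75 and 2.38 to GBF1, and over all BHLH156 peaks it was 1.50, 1.63, 1.17 and 1.21. For the 1000 strongest AY110782 peaks it was 3.10 to NRP1 and 2.38 to NACTF65, with 1.72 and 1.68 over all AY110782 peaks, and 1.38 to GBF1 (36 peaks against 25). Single distances near multiples of 11 bp, read from the data, weighed on these ratios. Of the 385 strongest AY110782 peaks with NRP1, 47 were exactly 34 bp away, 29 exactly 31 bp and 27 exactly 43 bp. Over all BHLH156 peaks, 471 stood exactly 55 bp from NRP1. From BHLH156 to BZR1 it was 0.65 among the 1000 strongest (29 peaks against 43) and 1.04 over all peaks (485 against 447), and from BZR1 to DOF36 it was 0.66 and 0.69. These lists meet at partly the same loci, so the ratios are not independent of each other.

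The overlap with GBF1, BZIP75 and the other bZIP lists was compared next. GBF1 and BZIP75 shared 57.4% with each other and had coinciding summits at 57.6% of the GBF1 peaks near BZIP75. By sharing of the 5000 strongest peaks, BHLH156 had 0.81% with GBF1 and 2.28% with BZIP75, AY110782 had 0.26% and 1.97%, and BZR1 had 0.04% and 0.06%. Over the 13 BZIP lists the mean was 0.71% ± 0.69 for BHLH156, 0.29% ± 0.54 for AY110782 and 0.18% ± 0.29 for BZR1 (SD over lists, which are different TFs and not replicates). Each mean was smaller than or close to its own SD.

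BZIP75 was the BZIP list closest to both BHLH156 and AY110782, and BZIP60 (1.0%) was the closest to BZR1. The lowest values were 0% for BZIP114 with BHLH156, 0% for BZIP78 and BZIP22 with AY110782, and 0.02% for BZIP54 with BZR1. Without BZIP75 the mean of AY110782 dropped to 0.155%, and without BZIP60 that of BZR1 dropped to 0.107%, so single lists carried much of these means.

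Over all peaks, a GBF1 summit lay at 7428 BHLH156 peaks (7.33%), 4074 AY110782 peaks (3.395%) and 1.09% of BZR1 peaks, against 6.73% of the peaks of the other lists. A BZIP75 summit lay at 7088 (6.998%), 4029 (3.36%) and 640 (0.699%), against 5.13%. These other lists include the bZIP lists themselves. Over the 95 lists that are neither members, BZIP lists nor GBF1, the shares were 2.18% for GBF1 and 1.59% for BZIP75, so that BHLH156 and AY110782 stood above them and BZR1 below. A summit of at least 1 of the 13 BZIP lists was found at 26.4% of BHLH156, 8.92% of AY110782 and 11.2% of BZR1 peaks. The share was 15.3% over the peaks of the other 96 non-BZIP lists, which here include GBF1. Among the 5000 strongest, these shares were 33.6%, 22.2% and 14.5%.

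BHLH156 and AY110782 differed in where the bZIP summits lay. Of the 7428 BHLH156 peaks with GBF1, 2127 (28.6%) had the summit within 1 bp, 1076 of them at the same base, and of its 7088 peaks with BZIP75, 1904 (26.9%) did. The corresponding shares of AY110782 were 2.60% (106 of 4074) and 3.30% (133 of 4029). The most frequent distance, read from the data, was 35 bp for AY110782, whose summits stood exactly 35 bp from GBF1 at 319 peaks (7.83%) and exactly 35 bp from BZIP75 at 268 peaks (6.65%). BHLH156 lay within 1 bp of GBF1 or BZIP75 at 3149 of its peaks (3.11%) and within 1 bp of both at 882.

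Signal at coinciding sites differed between the bZIP lists, which also differ in length, with 196911 peaks for GBF1 and 104158 for BZIP75. Whether length accounts for the difference was not tested. Median BHLH156 signal was 39.3 where GBF1 was within 1 bp, 50.0 where it was 2 to 100 bp away and 40 where it was absent. Of the 1000 strongest BHLH156 peaks, 42 had GBF1 within 1 bp and 252 had it farther off. With BZIP75 the medians were 47.5 within 1 bp, 62.75 at 2 to 100 bp and 40 where it was absent. Of BHLH156 sites within 1 bp of GBF1, 7.48% were among the 5000 strongest, against 13.4% at 2 to 100 bp and 4.40% without GBF1. For BZIP75 these shares were 14.5%, 16.7% and 4.09%. AY110782 was present at 13.9% of the sites coinciding with GBF1 and 15.6% of the sites 2 to 100 bp apart, against 5.55% of BHLH156 peaks without GBF1.

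**Figure D4:**
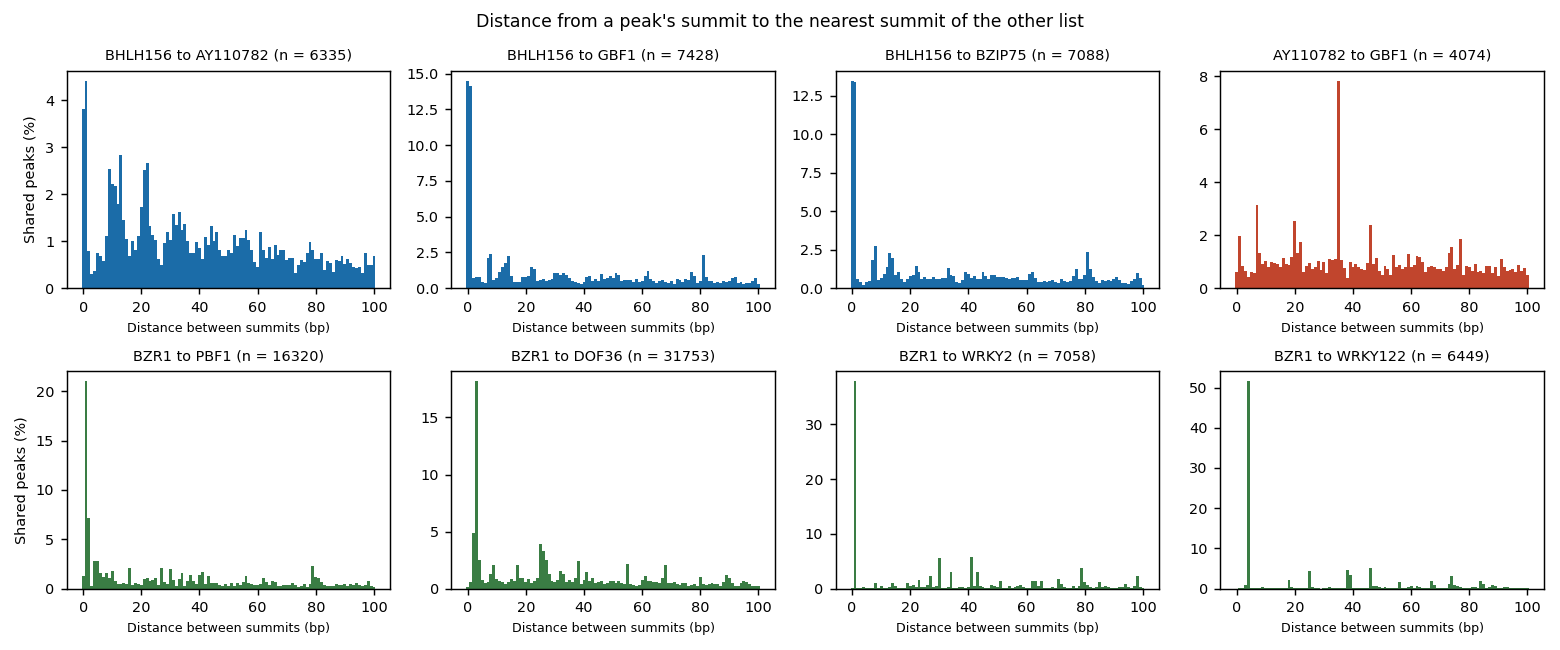
Distance in bp from a peak's summit to the nearest summit of another list (x axis), as a percentage of the peaks with such a summit within 100 bp (y axis, different scale in each panel). BHLH156 falls on GBF1 and BZIP75 at 0 and 1 bp, and on AY110782 in steps of about 11 bp. BZR1 stands at 1 bp from PBF1 and WRKY2, 3 bp from DOF36 and 4 bp from WRKY122.

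BZR1 sites were then divided by the presence of a WRKY summit. A summit of at least 1 of the 20 WRKY lists lay within 100 bp of 17799 BZR1 peaks (19.4%, Wilson 95% interval 19.2 to 19.7) and was missing at 73747. The share was 11.4% over the peaks of the 89 non-WRKY lists besides the 3 members. Over the 91 non-WRKY lists besides BZR1 the median share of a list was 10.7%, with a range of 1.76% to 73.4%, and 29 of these lists were above BZR1. BHLH156 had 24.1% and AY110782 2.44%. Among the 5000 strongest BZR1 peaks, 41.7% had a WRKY summit. The run identifiers of 3 WRKY lists (WRKY2, WRKY37 and WRKY105) began with the same 5 digits as that of BZR1, and these alone gave 9.86%, against 18.7% for the other 17.

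WRKY lists differed in how many BZR1 sites they reached. WRKY92 had most, with 11795 BZR1 peaks (12.9%), followed by WRKY1 (9.37%) and WRKY72 (9.17%). WRKY47 (3.32%), WRKY94 (4.81%) and WRKY14 (5.21%) had fewest. WRKY92 is also a long list, with 211449 peaks, and without it the share of BZR1 peaks with any WRKY summit was 16.7%. Lists of WRKY14 and WRKY47 held 17026 and 37753 peaks, and 30.4% and 8.12% of them had a BZR1 summit.

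The number of WRKY lists per BZR1 site had a peak at each end. A single WRKY list was present at 5939 sites, 12 lists at 159, and all 20 at 1800. Sites of 18 to 20 lists numbered 3371, sites of 10 to 17 lists 1890 and sites of 2 to 9 lists 6599.

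BZR1 peaks with a WRKY summit were somewhat stronger. Their median signal was 36 (quartiles 27.6 and 51), against 31 (25 and 40) without a WRKY summit, a ratio of 1.16. A −log10 q of 10 or more was reached by 20.5% with and 9.75% without a WRKY summit, and 11.7% with and 3.95% without were among the 5000 strongest of BZR1. At sites of 18 to 20 WRKY lists the median was 44.5, and at sites of 1 list 34. Position along the chromosome differed little, with 47.1% of peaks with and 46.2% without a WRKY summit in the outer 25% of a chromosome at either end.

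Other lists also differed between these sites. DOF36 was present at 56.1% of BZR1 sites with and 29.5% without a WRKY summit, PBF1 at 37% and 13.2%, and ZmOrphan110 at 27.7% and 1.62%. BHLH156 was present at 3.64% with and 1.41% without, and AY110782 at 0.292% and 0.475%. GBF1 (0.949% and 1.13%) and BZIP75 (0.781% and 0.679%) were nearly level. A summit of any BZIP list was found at 13.9% with and 10.5% without, and BZIP60 alone at 8.01% and 5.87%. Of 91 non-WRKY lists, 70 were more frequent and 21 less frequent where a WRKY summit was present.

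OCL5A, HB91 and CPP10 were picked after their values were seen. OCL5A, a homeodomain factor, was at 1.31% of BZR1 sites with and 5.79% without a WRKY summit, and HB91 at 1.35% and 5.41%. CPP10 stood at 17.5% with and 7.43% without, yet at none of the 3371 sites of 18 to 20 WRKY lists.

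The count of WRKY lists separated these partners further. At sites of 18 to 20 WRKY lists ZmOrphan110 was at 88.4%, DOF36 at 80.6% and PBF1 at 72.9%, against 1.62%, 29.5% and 13.2% at sites without WRKY. BHLH156 and the BZIP lists had their highest shares at sites of 2 to 9 WRKY lists, with 6.93% and 19.3%, and were at 0.0890% and 1.10% of sites with 18 to 20.

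**Figure D5:**
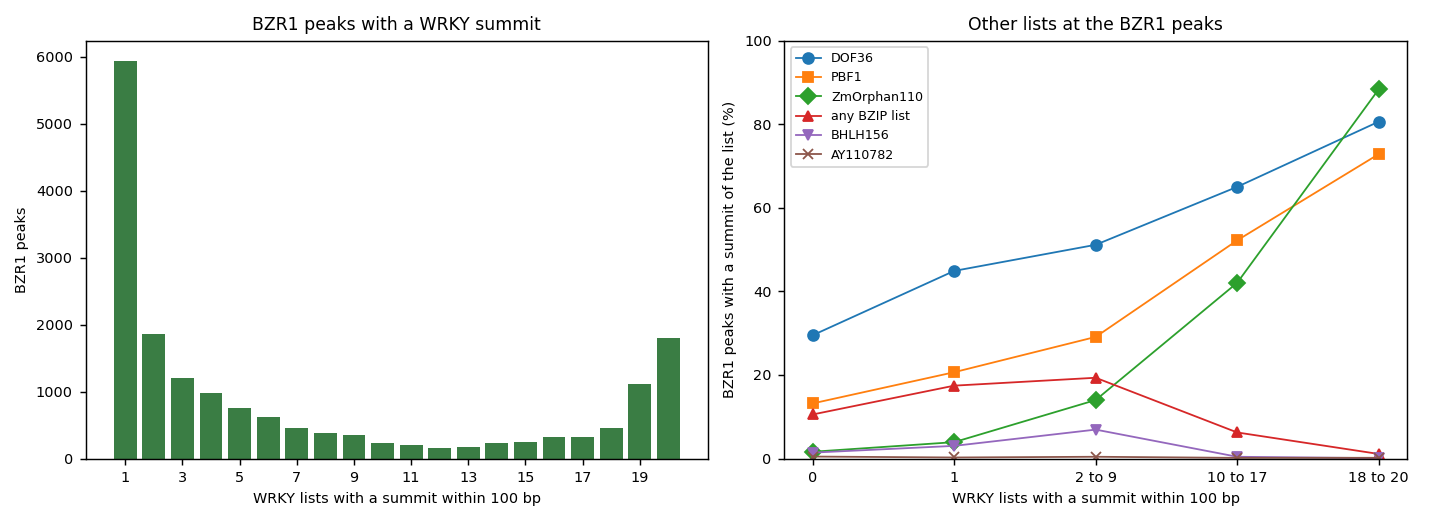
BZR1 peaks by the number of WRKY lists (1 to 20) with a summit within 100 bp (left), and the percentage of BZR1 peaks with a summit of 6 other lists or groups of lists by that number (right, 0 lists at the left). ZmOrphan110 reaches 88.4% at 18 to 20 WRKY lists, against 1.62% without WRKY.

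BZR1 and WRKY summits stood at fixed distances, which were noticed after the distances were seen, as was WRKY122 as an example. Against WRKY122, 3326 of 6449 shared peaks (51.6%) were exactly 4 bp from the WRKY summit, with the WRKY summit to the left of BZR1 at 1712 of them and to the right at 1614. Against WRKY2, 2674 of 7058 (37.9%) were exactly 1 bp away. The most frequent distance lay between 1 and 30 bp in the 20 WRKY lists and held 18.9% to 53.6% of the shared peaks, at least 30% in 16 of them.

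These exact distances recurred at the same BZR1 sites. At 2999 BZR1 peaks, 10 or more WRKY lists stood at their own most frequent distance. They made up 16.8% of the BZR1 peaks with a WRKY summit and 57% of the 5261 with 10 or more WRKY lists. ZmOrphan110 was present at 82.5% of them, DOF36 at 77.8% and PBF1 at 71.5%, while BHLH156 was at 0 and AY110782 at 4. At 1583 of the 2144 with PBF1 (73.8%) the PBF1 summit was exactly 1 bp away, and at 922 of the 2473 with ZmOrphan110 (37.3%) that summit was exactly 26 bp away. These 2999 peaks had a median signal of 43.9, and 620 (20.7%) were among the 5000 strongest BZR1 peaks. They were found on every chromosome, with 198 to 448 each.

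BZR1 and the Dof lists had fixed distances too, also noticed in the data, and these differed between DOF36 and PBF1. A DOF36 summit lay at 31753 BZR1 peaks (34.7%), and 5771 of them (18.2%) were exactly 3 bp apart. A PBF1 summit lay at 16320 (17.8%), and 3429 of them (21%) were exactly 1 bp apart. Both lists had a summit at 10642 BZR1 peaks, and DOF36 was present at 2478 of the 3429 (72.3%), while both exact distances met at 81 peaks. A WRKY summit was present at 2065 of the 5771 (35.8%) and 2291 of the 3429 (66.8%). None of the 5771 was among the 2999 sites of fixed WRKY distance, and 1583 of the 3429 were.

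DOF36 or PBF1 lay at 37431 BZR1 peaks in all (40.9%), at 4129 of the 5000 strongest (82.6%). Median signal was 37.1 with either Dof summit and 29 with neither. A WRKY summit was present at 30.8% of BZR1 peaks with a Dof summit and 11.6% of those with neither.

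The strongest BZR1 peak of all had a WRKY summit. It lay on chromosome 6 from 11540576 to 11540776, with a signal of 964.0, 6 WRKY lists, GBF1 and BHLH156 within 100 bp, and no Dof list. The strongest BHLH156 peak lay close by, from 11540169 to 11540369, with a signal of 1511. The strongest BZR1 peak without a WRKY summit was second in the list, on chromosome 7 from 50450544 to 50450744, with a signal of 435.0. PBF1, DOF36, ZmOrphan110 and BZIP60 were among the 15 other lists there.

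Along the chromosomes, 46.4% of BZR1 peaks lay in the outer 25% at either end of a chromosome, which ranked 13th from the lowest of all lists, against 50.6% for BHLH156 and 51.8% for AY110782. The lists ran from 36.6% to 58.6% with a median of 50.7%. Among the 5000 strongest peaks the values were 47.3% for BZR1, 45.8% for BHLH156 and 48.7% for AY110782, so the distance between the lists was smaller there. The 2999 BZR1 sites of fixed WRKY distance had 41.2% in these outer parts. Private and shared peaks did not separate by position, with 51.7% and 51.9% in AY110782, 50.5% and 50.7% in BHLH156, and 46.4% and 46.4% in BZR1.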

How the data were processed

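Per the study's methods, the authors trimmed reads with Trimmomatic 0.39, aligned them to B73 v4 with Bowtie2 2.4.1, removed duplicates with Picard and called peaks with GEM against an empty-vector library. The control library and the reads were not analysed here. The authors deposited 1 list per TF of 201 bp intervals around a central summit. The score column as deposited was left aside. The deposited signal column ranked peaks within a list, ties by position. Among the deposited −log10 p and −log10 q values, −log10 q ran between 3 and 999.

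Summits within 100 bp counted as shared, the 5000 strongest peaks of a list entered the sharing, and loci were made by chaining summits. Wilson and order-statistic intervals of 95% cover counting error only. No p-value was computed, because each TF had 1 list. The functions were tested on simulated summits (9 of 9 planted values recovered). Python 3.11.15, NumPy 2.4.6, pandas 2.3.3, SciPy 1.17.1 and Matplotlib 3.10.9 were used. The lists without a run identifier numbered 5, BHLH156 and GBF1 among them, so batch and TF cannot be told apart there.

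The members, the lists compared and the alternatives were chosen with earlier results of these data known. Besides the members, the naming rule covered GBF1, BZIP75, ZmOrphan110, the 5 closest lists of each member, the extreme BZIP lists, the 3 WRKY lists with most and the 3 with fewest BZR1 peaks, and the strongest sites of each kind. Lists and distances outside it are marked as picked after their values were seen. Sequences, genes near sites and proteins were not analysed here.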

Additional observations from a re-analysis of the deposited data

How the results depend on the processing

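Each list stands for 1 experiment, so no alternative measures the error between repeats, and read depth is unknown. No paired analysis was possible because each TF had 1 list and no result comes from a test. The order of the 3 pairs held under every window and number of peaks tried, while the levels moved. In the order BHLH156 with AY110782, BHLH156 with BZR1 and AY110782 with BZR1, sharing was 5.06%, 0.16% and 0.04% with a 20 bp window, 11.2%, 0.33% and 0.09% with 50 bp, 10.3%, 0.15% and 0% over the 1000 strongest peaks, 13.4%, 0.89% and 0.27% over the 20000 strongest, and 6.15%, 1.80% and 0.415% over all peaks. A 200 bp window, which for intervals of this width equals an overlap of 1 bp, gave 24.6% for BHLH156 with AY110782. Loci of all 3 numbered 40 at 20 bp, 142 at 50 bp and 25 among peaks with a −log10 q of 10 or more. Private shares of BHLH156, AY110782 and BZR1 were 63.2%, 85.5% and 61% at 20 bp, 46.9%, 72.3% and 42.4% at 50 bp, 21.8%, 44.2% and 14.8% at 200 bp, and 55.7%, 76.0% and 45.8% above that −log10 q. Without loci of 20 or more lists they were 33.9% for BHLH156 and 29.3% for BZR1. The share of BZR1 peaks with a WRKY summit was 10.5% at 20 bp, 14.1% at 50 bp, 26.8% at 200 bp, 24.2% above that −log10 q, 15.4% without loci of 20 or more lists, 9.86% from the WRKY lists with the run digits of BZR1, 18.7% from the others, 8.54% when 5 or more WRKY lists were asked for and 5.75% for 10 or more. Leaving out 1 WRKY list at a time gave 16.7% to 19.4%, lowest without WRKY92. The ratio of median signal with over without a WRKY summit was 1.22 at 20 bp and 1.19 at 50 bp. Mean sharing with the BZIP lists over all peaks was 4.25% for BHLH156, 1.28% for AY110782 and 1.24% for BZR1, and 1.84% for BHLH156 over the 20000 strongest. Leaving out 1 BZIP list at a time gave 0.576% to 0.766% for BHLH156, 0.155% to 0.319% for AY110782, lowest without BZIP75, and 0.107% to 0.189% for BZR1, lowest without BZIP60. Median distances at 50 bp were 21, 25 and 23 bp for the 3 pairs. Over the 5000 strongest peaks they were 39 bp for BHLH156 to AY110782 and 31 bp for BHLH156 to BZR1, and 40 bp for BHLH156 to BZR1 above that −log10 q.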
